A study of Mus musculus with 23 samples.

Results

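The livers of mice that inhaled diesel exhaust particles (DEP) were compared with the livers of mice that breathed filtered air. The members were chosen by the array titles: the 7 arrays titled DEP and the 8 arrays titled Air, 15 of the 23 arrays of the series. The remaining 8 arrays, of mice that inhaled carbon black, entered only the estimate of the spread. All mice were female C57BL/6 mice. DEP mice inhaled the standard reference material NIST 2975 at 20 mg/m3 for 90 min a day on 4 days, and air mice breathed filtered air in the same way. The mice were 12 to 13 weeks old and were sampled 90 min after the last exposure, by the labels. The methods text differs from the labels on both, with younger mice and an earlier sampling. RNA of the whole liver of 1 mouse was labelled with Cy5 and hybridised beside a universal mouse reference RNA labelled with Cy3, with no exchange of the dyes. A log2 ratio is therefore the level of a gene in a liver relative to the same reference, and a log2 difference is the mean log2 ratio of the DEP mice minus that of the air mice. In bulk liver, fewer cells of a type and less RNA per cell cannot be told apart.

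Diesel particles carry polycyclic aromatic hydrocarbons, which bind the aryl hydrocarbon receptor and induce Cyp1a1, Cyp1a2 and Nqo1 in hepatocytes. Inflammatory signals from the lung can reach the liver through IL-6 and STAT3, and hepatocytes then make acute phase proteins such as the serum amyloid A proteins, serum amyloid P (Apcs), hepcidin (Hamp) and lipocalin 2 (Lcn2). The liver also makes cholesterol and fatty acids under the control of the SREBP transcription factors, which respond to sterols, insulin and feeding. The comparison asked whether inhaled DEP changed any of these programmes in the liver.

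Arrays of the 2 groups were of like brightness, with median Cy5 signals over the features tested of 262 to 541.5 for air and 312 to 511 for DEP. Between 13.8% and 41.9% of these features carried the deposited flag for an absent Cy5 spot on an air array, and between 19.2% and 37.4% on a DEP array. Spots at the top of the scanner's scale (65535) were capped, and their ratio is only a bound. There were 59 to 271 such Cy5 spots per air array and 61 to 422 per DEP array, the most on the array of DEP mouse 51. Each array correlated with the mean of the rest of its group at r = 0.953 or above in the air group and 0.933 or above in the DEP group, across features. Exposure took place in 3 rounds. The first round had 2 air mice and 1 DEP mouse, the second 4 air mice and 2 DEP mice, and the last 2 air mice and 4 DEP mice.

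No gene changed past the threshold. Of the 18688 features with a listed gene, 0 (0%) had an adjusted p under 0.05 (limma, Benjamini-Hochberg), and the lowest adjusted p was 0.151, that of Tmed3. An unadjusted p under 0.05 was reached by 900 features (4.82%), where 934.4 are expected by chance. Of these, 427 (2.28%) were higher and 473 (2.53%) lower after DEP. The median standard error of a difference was 0.13 on the log2 scale. The 95% confidence interval of the difference lay within 2-fold in either direction for 98.0% of the features and within 1.5-fold for 87.8%. The arrays of the 2 groups did not overlap for 2 features (0.0107%), A830023I12Rik, flagged absent in Cy5 on all 15 arrays, and Ambp, saturated on all 15. Over all features the median difference was 0.00, and 50% of the features were lower after DEP.

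Tmed3 (NM_025360) had the smallest p. It encodes a p24 family cargo receptor that shuttles between the endoplasmic reticulum and the Golgi. In the air mice its log2 ratio was -1.71 at the lowest, -1.43 at the median and -1.34 at the highest, and in the DEP mice -2.30, -1.94 and -1.70. Only DEP mouse 444, at -1.70, and air mouse 835433, at -1.71, met, and the other DEP mice lay below every air mouse. The means were -1.48 ± 0.14 (SD, n = 8) and -1.97 ± 0.18 (SD, n = 7), a difference of -0.49 (standard error 0.09, 95% interval -0.67 to -0.31, adjusted p = 0.151 from limma). That is a level 1.40-fold lower, which did not pass the test. Tmed3 kept this direction on each exposure day that held both groups. It differed by -0.44 on day 1, with 1 mouse in each group. On days 3 and 5, with 2 mice in each group, it differed by -0.45 and -0.42. Using only second-round mice gave -0.39 and only last-round mice -0.50, and it lay between -0.53 and -0.43 when any 1 mouse was left out. The liver channel alone gave -0.39, while the reference channel on the same spots differed by 0.12. Since the reference RNA is the same on every array, the difference of its channel measures how far the arrays themselves differed. In the 8 carbon black mice Tmed3 ranged from -2.05 to -1.67.

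Zc3hav1, the zinc finger antiviral protein, had the smallest p among the genes with a higher level. Its log2 ratio was -1.43, -1.16 and -0.87 in the air mice (lowest, median, highest) and -0.96, -0.69 and -0.27 in the DEP mice. The groups overlapped between air mice 54 and 442 and DEP mouse 835435. The difference was 0.47 (standard error 0.11, adjusted p = 0.753 from limma), with 0.42 in the liver channel alone and 0.00 in the reference channel. Hscb, a co-chaperone of iron-sulfur cluster assembly, had a log2 ratio of -1.45 ± 0.14 (SD, n = 8) in the air mice and -1.14 ± 0.11 (SD, n = 7) in the DEP mice. Its difference of 0.32 was 0.29 to 0.34 without any 1 mouse. Ypel3 was 0.38 higher and Lrrc8d, a subunit of the volume-regulated anion channel, 0.42 higher, both in the liver channel too (0.40 and 0.45).

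Cd200, the ligand of an inhibitory receptor on myeloid cells, split the DEP mice. Its log2 ratio stayed between -0.17 and 0.11 in the air mice. In the DEP mice it was 1.22, 1.17 and 1.51 in mice 55, 835434 and 835435 and between -0.13 and 0.45 in the other 4. The reference channel differed by 0.78 for this spot as well, beside 1.43 in the liver channel. The spot was flagged absent in Cy5 on 7 of the 8 air arrays and 3 of the 7 DEP arrays. The remaining genes of the 12 were Dnal4, 2610005L07Rik, Tmem183a, Dcbld2, Lrrc46, Hnrnpa3 and Cand1. The differences of the 12 ranged from 0.31 to 0.72 and stayed above 0 in the liver channel alone, in both the second and the last round and without any 1 mouse, though not by like amounts. The widest, 0.72 for 2610005L07Rik, was 0.02 in the liver channel and -0.74 in the reference channel. The 0.35 of Dcbld2 was 0.12 in the liver channel. Dcbld2 was flagged absent in Cy5 on 3 air and 4 DEP arrays, and Cand1 on 4 air and 1 DEP array. Lrrc46 was at 0.00 among second-round mice, and Tmem183a at -0.09 on day 3. The adjusted p of the 12 ranged from 0.753 to 0.997 (limma). The 12 were chosen by p in these same mice, which favours signs that hold without any 1 mouse.

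**Figure D1:**
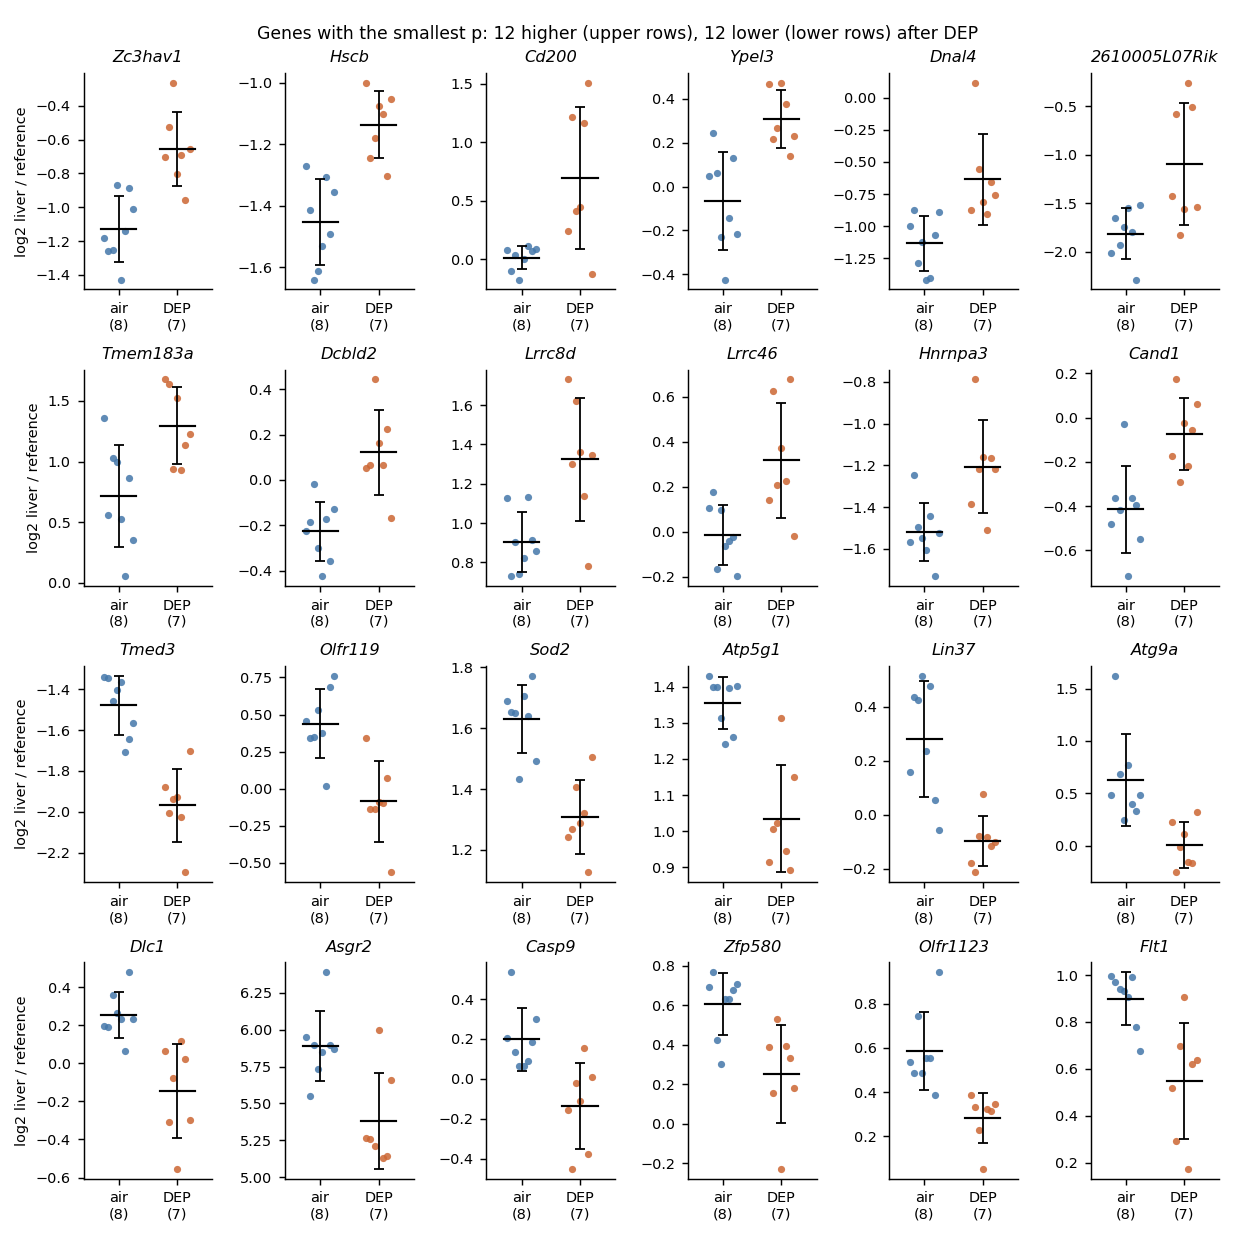
The log2 ratio of liver to reference (vertical axes) of each mouse for the 12 genes with the smallest p among those higher after DEP (upper 2 rows) and among those lower (lower 2 rows). Genes saturated or flagged absent on most arrays were passed over. Points are the 8 air mice and the 7 DEP mice, bars the mean and SD, and the groups touch or overlap in every panel. For Cd200 3 DEP mice stand above the rest, and for Tmed3 all DEP mice but 1 lie below every air mouse.

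Tmed3 led the 12 genes with the smallest p on the lower side, none of which passed the threshold. Sod2, the superoxide dismutase of mitochondria, was 1.63 ± 0.11 (SD, n = 8) in the air mice and 1.31 ± 0.12 (SD, n = 7) in the DEP mice, a difference of -0.32 (adjusted p = 0.753 from limma). The liver channel alone gave only -0.08 for Sod2, and its Cy5 spot was saturated on 3 air and 2 DEP arrays. Casp9, the initiator caspase of the mitochondrial death pathway, differed by -0.33 in the ratio and -0.36 in the liver channel. Flt1, a VEGF receptor of endothelial cells, differed by -0.35 and -0.56. Dlc1 differed by -0.40 and -0.30, and Lin37, a subunit of the DREAM complex, by -0.38 and -0.23. Lin37 was flagged absent in Cy5 on 4 air and 5 DEP arrays, and Casp9 on 0 air and 4 DEP arrays. The autophagy gene Atg9a differed by -0.62, with air mouse 50 at 1.62 above the other air mice (0.24 to 0.77), and was -0.48 without that mouse. Its liver channel differed by -1.40 and its reference channel by -0.83. Atg9a was flagged absent in Cy5 on 0 air and 3 DEP arrays.

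For 2 of the 12 the liver channel had the opposite sign to the ratio, with a wider standard error. Atp5g1, a subunit of the proton channel of ATP synthase, differed by -0.32 in the ratio but by 0.53 in the liver channel and 0.61 in the reference channel. Its standard errors were 0.08, 0.35 and 0.31 in that order. Asgr2, a chain of the asialoglycoprotein receptor of hepatocytes, differed by -0.51, 0.39 and 0.79 in the same order (standard errors 0.14, 0.21 and 0.25). The lower side also held Olfr119, Olfr1123 and Zfp580. All 12 were lower in both rounds and without any 1 mouse, and 10 were lower in the liver channel alone. Their choice by p in these same mice favours such a result.

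Bright features behaved differently from the rest. The features were split into 10 bins of equal size by mean log2 signal. In the brightest bin 67.2% were lower after DEP, against 39.9% to 55.0% in the other bins, and the median difference there was -0.05. The same bin held 162 of the 900 features at an unadjusted p under 0.05, 139 of them lower. It also held 430 of the 438 features with a saturated Cy5 spot on at least 1 of the 15 arrays. Of the 473 lower features 97 had such a spot, and of the 427 higher features 1 had. The 36 features saturated in Cy5 on all 15 arrays had a median difference of -0.34, and 35 of them were lower. For these the liver channel is capped at one value, and their reference channel differed by a median of 0.32. The reference channel was also tested by itself, and 0 features passed the threshold, with 710 (3.80%) at an unadjusted p under 0.05. For many abundant liver genes the liver channel alone is therefore given below as well. On arrays where a Cy5 spot is capped, the liver channel cannot show a difference either.

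**Figure D2:**
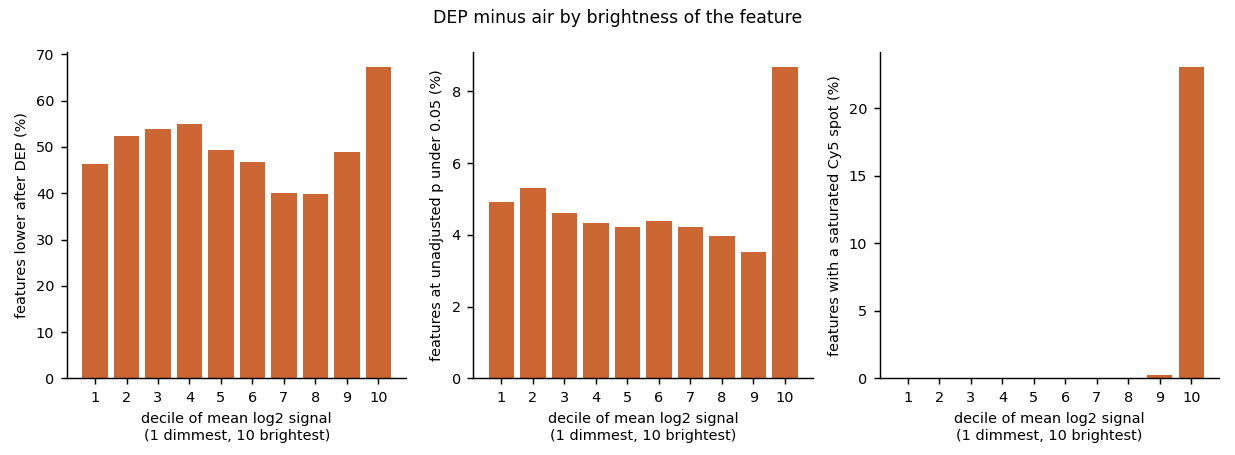
Share of features lower after DEP (left), at an unadjusted p under 0.05 (middle) and with a saturated Cy5 spot on at least 1 of the 15 arrays (right), in percent, for 10 bins of the features ordered by mean log2 signal over both channels. The brightest bin reaches 67.2% lower and 8.67% at an unadjusted p under 0.05, and it holds 430 of the 438 features with a saturated spot.

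No gene of the aryl hydrocarbon receptor battery passed the threshold. Of the 12 measured, 0 were at an unadjusted p under 0.05, 9 were lower, and the median difference was -0.09, with -0.04 in the liver channel. The widest of the 3 higher differences was that of Cyp1b1, 0.24 (95% interval -0.51 to 0.99). It was 1.01 in the liver channel and 0.71 in the reference channel. Using only second-round mice gave 1.15 for Cyp1b1, and only last-round mice -0.85. Cyp1a1, the P450 that oxidises polycyclic hydrocarbons, had a log2 ratio of 0.06, 0.24 and 0.55 in the air mice (lowest, median, highest) and -0.22, 0.14 and 0.40 in the DEP mice. It was flagged absent in Cy5 on 6 of 8 air and 6 of 7 DEP arrays, so its level lay near the background in both groups. The difference was -0.18 (standard error 0.12, 95% interval -0.43 to 0.06). Cyp1a2, the constitutive hepatic member of the family, was 3.67 ± 0.36 (SD, n = 8) and 3.62 ± 0.41 (SD, n = 7), and its difference of -0.05 had an interval of -0.43 to 0.33. Nqo1, a quinone reductase, differed by -0.23 (interval -0.64 to 0.18), with DEP mouse 835434 lowest at -2.09. Without that mouse the difference was -0.06. Arnt, the partner of the receptor, differed by -0.19, and by -0.09 without DEP mouse 51, whose value of -0.93 lay below the other DEP mice (-0.40 to -0.04).

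GCGTG is the core of the xenobiotic response element, the longer site to which the activated receptor and Arnt bind. Only these core letters were searched for. They do not by themselves mark a bound site, and binding was not tested. RefSeq promoters (GRCm38.p6) were found for 9 of the 12 genes, and 5 of them (Ahrr, Arnt, Cyp1a1, Cyp1b1 and Tiparp) held GCGTG on either strand in the 250 bases before the start, as did 28.2% of all 32851 promoters. Of the genes with a promoter entry, 10 of 16 in cholesterol synthesis and 4 of 12 in fatty acid synthesis held it too. The distal enhancer of Cyp1a1 lies further upstream and was not part of this window. In the lines below capitals mark GCGTG, which begins 54 bases before the start of Cyp1a1 (chr9:57697519-57697603, plus strand) and 29 bases before that of Arnt (chr3:95434321-95434389, plus strand).
Cyp1a1: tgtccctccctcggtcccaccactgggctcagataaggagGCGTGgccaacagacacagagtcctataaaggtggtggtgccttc
Arnt: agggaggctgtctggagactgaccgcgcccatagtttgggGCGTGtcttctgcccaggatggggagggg

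Targets of NRF2, the regulator of the response to electrophiles and oxidants, had a median difference of -0.06 over 28 genes. Only Tkt among them was at an unadjusted p under 0.05, a level reached by 4.82% of all features. Tkt differed by -0.27 in the ratio and 0.04 in the liver channel. Hmox1, heme oxygenase 1, was -0.88 ± 0.38 (SD, n = 8) in the air mice and -1.07 ± 0.15 (SD, n = 7) in the DEP mice, and its interval of -0.49 to 0.10 ended below a 1.5-fold higher level. The difference of -0.19 was -0.10 without air mouse 442. Mt1, a metallothionein induced by metals and glucocorticoids, differed by -0.19 (interval -0.54 to 0.16; -0.10 without DEP mouse 57), with a saturated Cy5 spot on 6 air and 6 DEP arrays. Among antioxidant enzymes 14 of 19 were lower in the ratio and 9 of 19 in the liver channel. Park7, a redox sensor, was lower in both, by -0.33 and -0.28.

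No acute phase gene passed the threshold. Over 24 positive acute phase proteins the median difference was -0.16, with 17 lower and 4 of these (Hamp, Saa4, Saa1 and Fgg) at an unadjusted p under 0.05. Over all features 2.53% were lower at that level, and 139 of the 1869 features of the brightest bin. None of the 24 was higher at that level. The liver channel alone gave a median of 0.02, with 12 of 24 lower. The 17 genes with no saturated spot had a median of -0.06 in the ratio, and without DEP mouse 55 the median of the 24 was -0.10. Saa1, a serum amyloid A protein, had a log2 ratio of 3.34, 4.04 and 4.76 in the air mice (lowest, median, highest) and 3.41, 3.59 and 3.81 in the DEP mice. The DEP mice all lay within the range of the air mice, in its lower part. The difference was -0.43 (standard error 0.18, 95% interval -0.80 to -0.07, adjusted p = 0.997 from limma). The liver channel alone gave -0.29, and the Cy5 spot was saturated on 3 air and 2 DEP arrays. Using only second-round mice gave -0.39 and only last-round mice -0.42, but on day 3, with 2 mice in each group, it was 0.05.

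Hamp, the hormone that limits iron uptake, was 3.70 ± 0.41 (SD, n = 8) in the air mice and 3.24 ± 0.19 (SD, n = 7) in the DEP mice. The difference was -0.46 (standard error 0.14, adjusted p = 0.997 from limma), with -0.25 in the liver channel, and its Cy5 spot was saturated on 4 air and 2 DEP arrays. Saa3, the serum amyloid A that macrophages also make, ranged from -1.18 to 3.12 in the air mice and from -0.91 to 2.39 in the DEP mice. This spread within each group was far wider than the difference of -0.59, whose interval ran from -1.90 to 0.72. Without air mouse 53 it was -0.26, and without DEP mouse 444 -0.95. Apcs differed by 0.01 (interval -0.46 to 0.47) and Lcn2 by -0.09 (interval -0.90 to 0.71). For Saa3 and Lcn2 the interval therefore does not reach a 2-fold higher level, and for Apcs it ends below a 1.5-fold higher level.

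**Figure D3:**
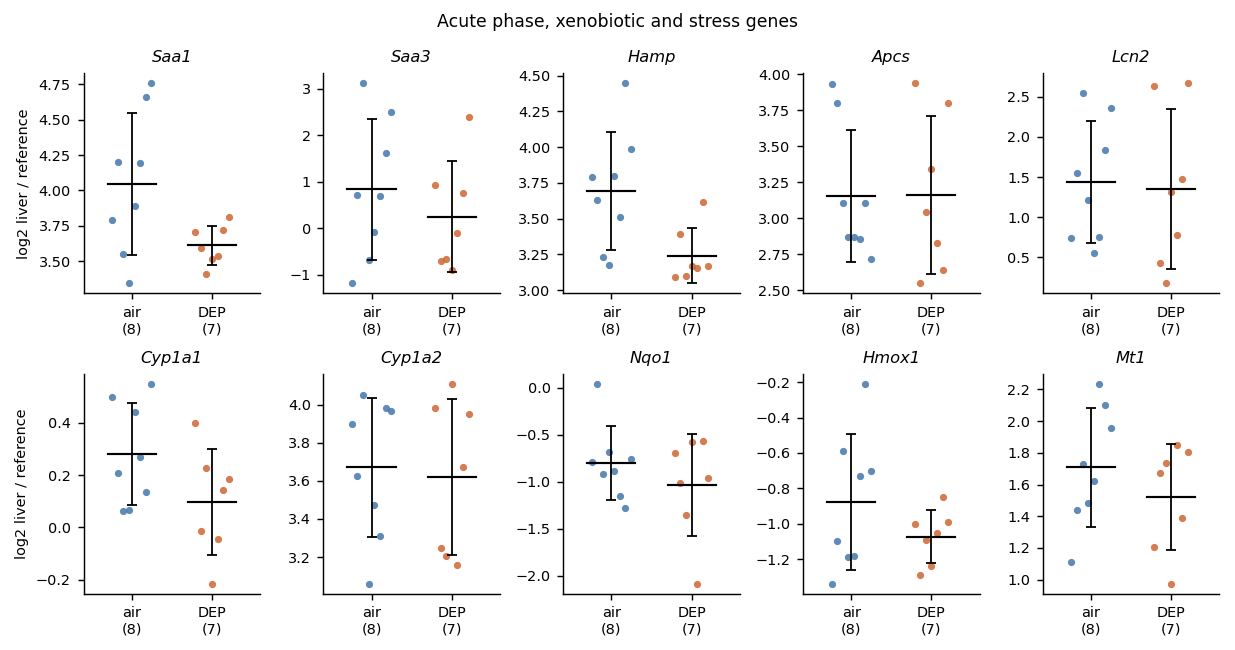
Log2 ratio of liver to reference of each mouse for 5 acute phase genes (upper row) and for genes of the response to xenobiotics, oxidants and metals (lower row). Points are the 8 air and the 7 DEP mice, and bars the mean and SD. The DEP mice lie within the range of the air mice for Saa1, in its lower part, and Saa3 and Lcn2 spread widely in both groups.

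Upstream of these genes, 16 genes of IL-6 and STAT3 signalling had a median difference of -0.16 in the ratio and -0.13 in the liver channel, with 12 and 11 lower and 0 at an unadjusted p under 0.05. Stat3 itself was 0.61 ± 0.24 (SD, n = 8) in the air mice and 0.41 ± 0.09 (SD, n = 7) in the DEP mice, a difference of -0.21, with -0.37 in the liver channel. Among 23 cytokines and chemokines the median difference was 0.05. The 2 at an unadjusted p under 0.05, Csf3 and Cxcl1, were both lower, by -0.23 and -0.95. Over all features 4.82% reached that level, and 2.53% did so on the lower side. Csf3 was flagged absent in Cy5 on 3 air and 6 DEP arrays. Interferon-stimulated genes had a median of -0.04 over 24 genes, with Zc3hav1 higher and Bst2 lower (-0.31). Those 2 were at an unadjusted p under 0.05, a level reached by 4.82% of all features. The DNA damage response (18 genes), the circadian clock (17) and glucocorticoid targets (15) had medians of 0.01, -0.04 and -0.07 and 0 genes at that level. Their genes with the smallest p were Bbc3 and Phlda3, Per3 and Rora, and Errfi1 and Lpin1. Per3, a clock gene, was at 1.90 and 1.03 in air mice 50 and 443 and between -0.31 and 0.28 in all others. Its difference of -0.42 was -0.20 without air mouse 50, and its spot was flagged absent in Cy5 on 0 air and 3 DEP arrays.

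The medians of secreted and metabolic liver genes were below 0 in the ratio and nearer to 0 in the liver channel. Many of these genes had a saturated Cy5 spot on at least 1 array, 10 of the 17 apolipoprotein and 16 of the 29 P450 genes measured. A capped spot can hold the liver channel near 0, so its median does not decide whether such genes differed. Of the 32 lists 22 had a median below 0 in the ratio and 18 in the liver channel. Apolipoprotein genes had a median difference of -0.25 (11 of 13 lower), but 0.00 in the liver channel and 0.23 in the reference channel. For 26 P450 genes outside the aryl hydrocarbon battery the ratio was lower by a median of -0.24, with 21 lower and 9 at an unadjusted p under 0.05 in that direction, against 2.53% of all features and 139 of 1869 in the brightest bin. The liver channel gave -0.02 for the same 26 genes and the reference channel 0.25. The 13 of them with no saturated spot still had a median of -0.23 in the ratio, with 10 lower. Within them Cyp4f14, which oxidises fatty acids and leukotrienes, differed by -0.40 in both the ratio and the liver channel. Cyp2c55 differed by -0.37 and -0.33, and no array had a saturated spot for either. Of 63 genes of oxidative phosphorylation 56 were lower, with a median of -0.13, and 35 were lower in the liver channel, with a median of -0.02. At an unadjusted p under 0.05, 8 were lower, against 2.53% of all features and 139 of 1869 in the brightest bin. Of the 66 measured, 37 had a saturated spot. The 29 with none had a median of -0.08, with 23 lower. Over all features 51.9% were lower in the liver channel.

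**Figure D4:**
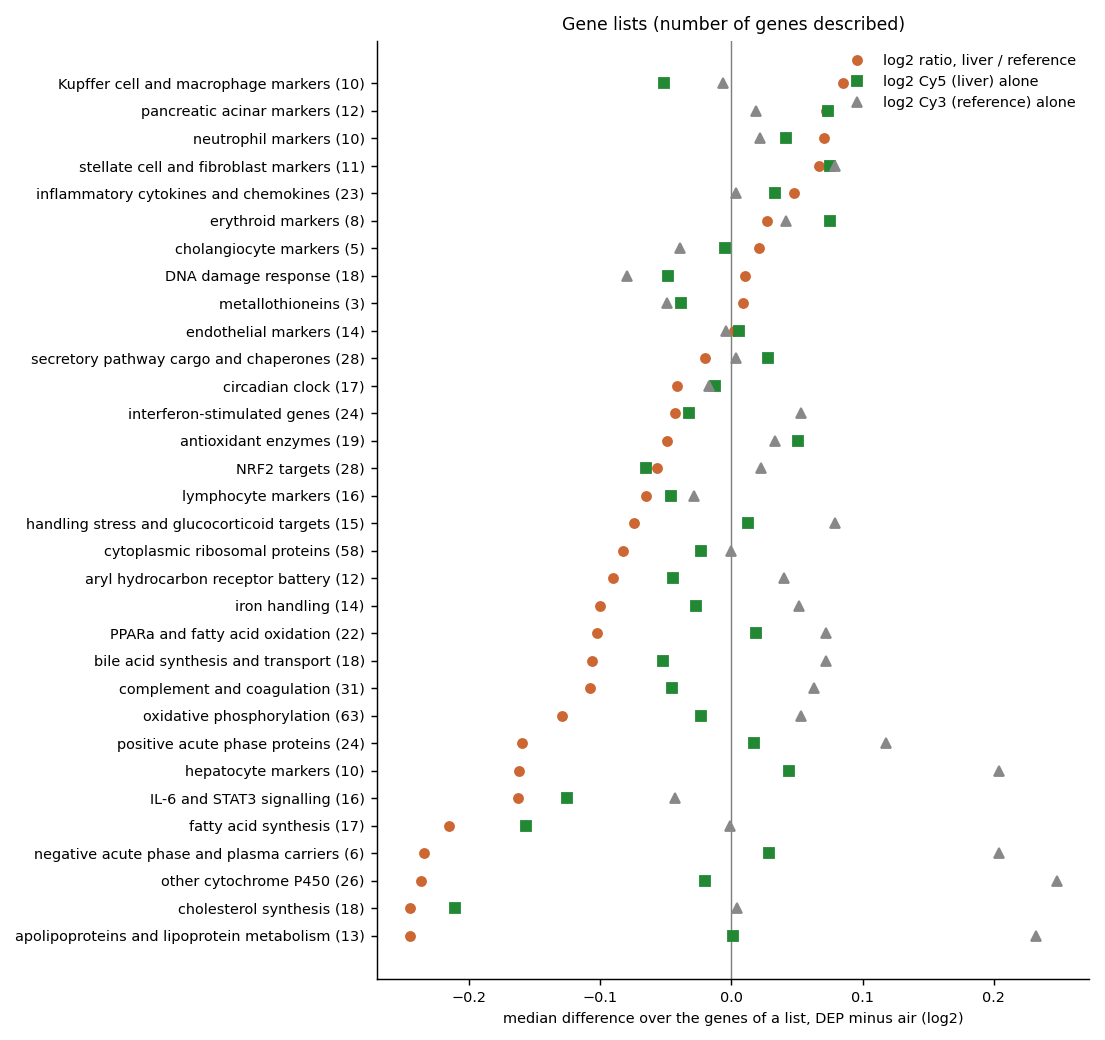
Median difference, DEP minus air, over the genes of each of the 32 lists on the log2 scale (horizontal axis), for the ratio, the liver channel alone and the reference channel alone. The number of genes stands after each name. Cholesterol synthesis and fatty acid synthesis are lower in the ratio and in the liver channel (-0.24 and -0.21, -0.22 and -0.16). The medians of the apolipoproteins and other P450 genes are near 0 in the liver channel, where many of these genes have a capped spot.

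Cholesterol and fatty acid synthesis were the lists whose medians were lowest in the liver channel. Of 18 genes of cholesterol synthesis 15 were lower in the ratio and 14 in the liver channel, with medians of -0.24 and -0.21, and the reference channel gave 0.00. The median ratio was -0.11 over the 11 genes with no saturated spot and -0.13 without DEP mouse 56. Of 17 genes of fatty acid synthesis 12 were lower in the ratio and 11 in the liver channel, with medians of -0.22 and -0.16, and the reference channel gave 0.00. Its median ratio was -0.44 among second-round mice but 0.04 among last-round mice, which include 4 of the 7 DEP mice, and -0.14 without DEP mouse 56. The genes at an unadjusted p under 0.05 (2.53% of all features on the lower side) were Sc5d and Pmvk in the first list and Thrsp, Acacb and Elovl5 in the second, all lower.

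These medians came from mice that differed widely from each other. Taken mouse by mouse, the median deviation of the cholesterol genes from the air mean was between -0.20 and 0.35 in the 8 air mice. In the DEP mice it was -0.89 in mouse 55, -1.04 in mouse 56 and -0.72 in mouse 835434, but 0.26, 0.32, -0.08 and 0.32 in mice 51, 57, 835435 and 444. The fatty acid genes put the same mice apart, at -0.71, -0.56 and -0.73 in mice 55, 56 and 835434 and between -0.28 and 0.47 in the other 4. Markers of Kupffer cells and macrophages (10 measured of 12 listed) also differed among the DEP mice. Their median deviation was -0.43, -0.20 and -0.21 in mice 55, 56 and 835434 and -0.28 in mouse 835435, against 0.47, 0.45 and 0.52 in mice 51, 57 and 444 and -0.26 to 0.30 in the air mice. Their part in the lipid values was not tested. The 3 mice came from different rounds of exposure. In the 8 carbon black mice the cholesterol genes ranged from -0.89 to 0.24 (median 0.08) and the fatty acid genes from -0.47 to 0.04 (median -0.21).

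Acacb (BC022940) was among the genes that split the DEP mice in this way. It encodes the acetyl-CoA carboxylase whose malonyl-CoA restrains fatty acid oxidation. Its log2 ratio lay between 3.82 and 4.29 in the air mice. In DEP mice 55, 56 and 835434 it was 2.44, 2.35 and 2.4, and in mice 51, 57, 835435 and 444 it was 3.90, 4.35, 3.74 and 3.97. The difference between the groups was -0.72 (standard error 0.25, adjusted p = 0.997 from limma), with -0.91 in the liver channel. Leaving out 1 mouse at a time gave -0.89 to -0.56, so no single array carried it. In the 8 carbon black mice Acacb ranged from 3.02 to 4.05, with a median of 3.54.

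Pmvk, the phosphomevalonate kinase, was between 1.44 and 1.94 in the air mice. It was 0.27, -0.16 and 0.22 in DEP mice 55, 56 and 835434 and between 1.28 and 2.13 in the other 4. In the 8 carbon black mice Pmvk ranged from 0.31 to 1.70, with a median of 1.38. Sc5d, an enzyme late in the pathway, was 3.43, 3.61 and 3.27 in the same 3 mice and between 4.26 and 4.92 in the other 4, against 4.13 to 5.17 in the air mice. In the liver channel Pmvk differed by -0.79 and Sc5d by -0.45, beside differences of -0.67 and -0.63 in the ratio. Thrsp, a lipogenic protein of the thyroid hormone response, was lowest in the same mice, at 3.00, 2.29 and 2.75, with a difference of -0.66 in the ratio, -1.05 in the liver channel and -0.60 in the reference channel. Angptl4, an inhibitor of lipoprotein lipase, was 1.28, 0.85 and 1.92 there, but the air mice reached down to 1.46.

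Serpina7, the thyroxine-binding globulin, had the widest difference of the genes chosen by the rule, 1.38 (standard error 0.56, adjusted p = 0.997 from limma), with 1.77 in the liver channel. It was between 0.73 and 2.02 in the air mice. It was 4.92, 3.84 and 4.42 in DEP mice 55, 56 and 835434 and between 1.28 and 2.02 in the other 4 DEP mice. The chemokine gene Cxcl1 was lowest in the same mice, at -2.41, -3.18 and -2.51, but it ranged from -2.32 to 0.67 among the air mice. Serpina7 also reached 5.37 in 1 of the 8 carbon black mice, whose median was 1.89. What set these 3 DEP mice apart was not tested.

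**Figure D5:**
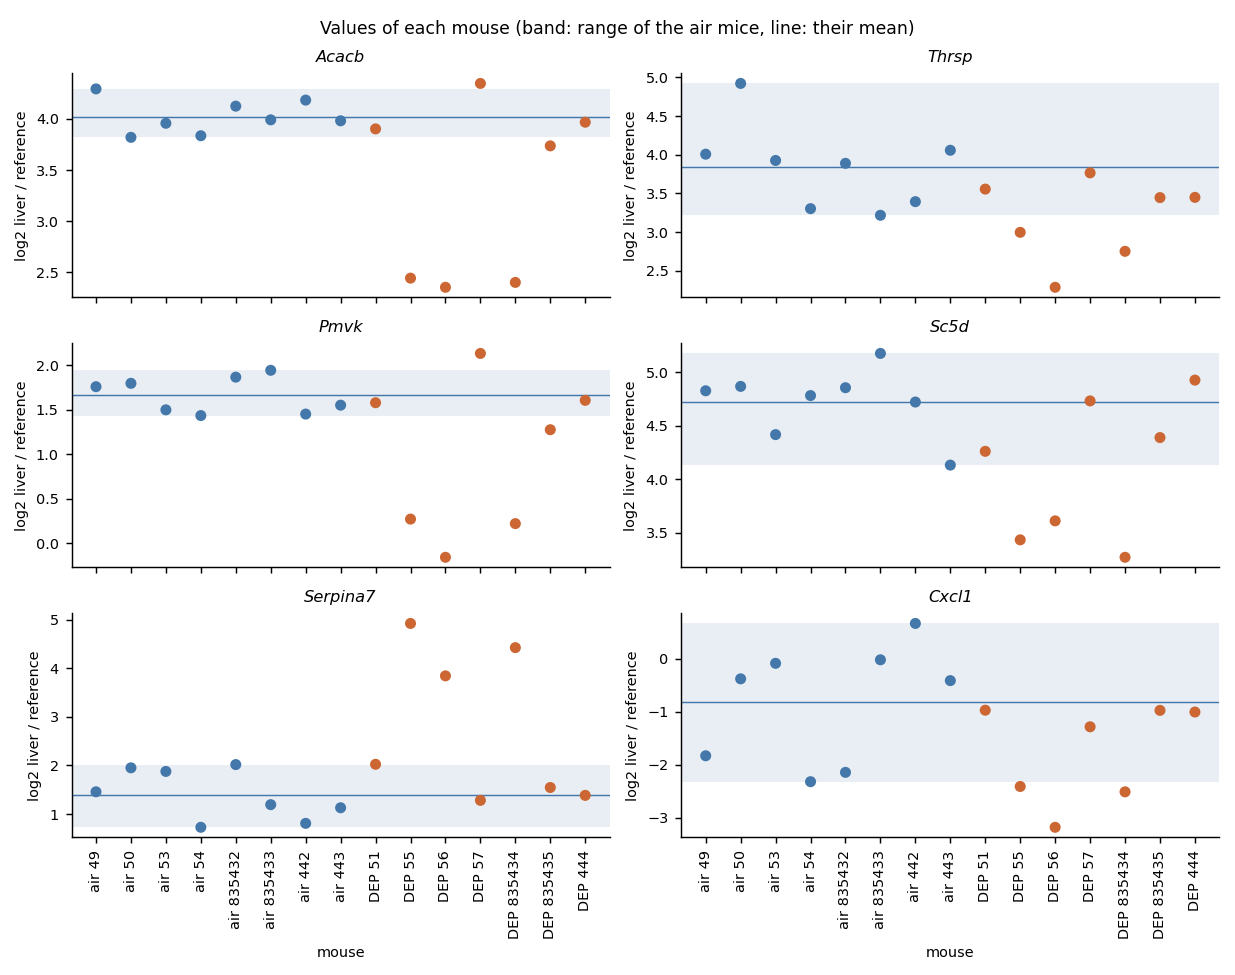
Log2 ratio of liver to reference in each of the 15 mice for 2 genes of fatty acid synthesis (Acacb, Thrsp), 2 of cholesterol synthesis (Pmvk, Sc5d), Serpina7 and Cxcl1. The band is the range of the 8 air mice and the line their mean. DEP mice 55, 56 and 835434 lie outside the band in all 6 panels, and the other DEP mice lie within it or close to it.

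Hmgcs1, the synthase that opens the mevalonate pathway, followed the same mice with a smaller difference. It was 1.10, 1.45 and 1.15 in DEP mice 55, 56 and 835434, between 2.31 and 3.18 in the other 4 and between 1.96 and 3.29 in the air mice. The difference was -0.41 (standard error 0.32), with -0.35 in the liver channel, and -0.25 without DEP mouse 55. SREBP transcription factors bind the sterol regulatory element, and the promoter of Hmgcs1 is shown because it held the letters TCACCCCAC on the plus strand, beginning 137 bases before the start (chr13:119690174-119690262, RefSeq GRCm38.p6). It was the 1 gene with this run among the 16 cholesterol genes that have a promoter entry, and 0.496% of all promoters held it on either strand in the 250 bases before the start. Capitals mark the element.
Hmgcs1: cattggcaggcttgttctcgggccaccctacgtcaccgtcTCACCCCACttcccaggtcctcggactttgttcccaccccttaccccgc

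No marker gene of the cells in liver passed the threshold. Hepatocyte markers had a median difference of -0.16 over 10 genes in the ratio and 0.04 in the liver channel. Of the 12 measured, 9 had a saturated spot. Kupffer cell and macrophage markers had 0.08 (10 genes), neutrophil markers 0.07 (10), lymphocyte markers -0.07 (16), endothelial markers 0.00 (14) and stellate cell markers 0.07 (11). The macrophage median was -0.05 in the liver channel and -0.05 in the ratio without DEP mouse 444. The hepatocyte median was -0.10 without air mouse 443. The smallest p among macrophage markers was that of Lyz2, and Marco, a scavenger receptor, reached 4.24 in DEP mouse 444 and 2.95 in DEP mouse 51 against 1.39 to 2.17 in the air mice. Without DEP mouse 444 the difference of Marco went from 0.51 to 0.18. Of the 10 neutrophil markers 5 were flagged absent in Cy5 on most arrays of both groups. Pancreatic acinar markers, which do not belong to liver, had a median of 0.07 over 12 genes, with Cela2a at 3.87 in DEP mouse 51 against 1.47 to 2.57 in the air mice. The difference of Cela2a was 0.61, and 0.39 without that mouse.

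The other lists also held genes that stood out. In the secretory pathway (28 genes, median -0.02) 2 were higher and 3 lower at an unadjusted p under 0.05. Over all features 2.28% were higher and 2.53% lower at that level. These genes were Tmed3, Pdia3, Sil1, Sec61b and Pdia4. Pdia3, a disulfide isomerase of the endoplasmic reticulum, differed by 0.26 in the ratio but by -0.69 in the liver channel and -0.94 in the reference channel. Among 31 genes of complement and coagulation (median -0.11) Plg, the precursor of plasmin, differed by -0.42 and its inhibitor Serpinf2 by -0.40, with 0.05 and 0.11 in the liver channel. The 6 negative acute phase genes not saturated on all arrays had a median of -0.23 (-0.15 without DEP mouse 51). Their median was 0.03 in the liver channel and 0.20 in the reference channel. Over the 2 of them with no saturated spot the median ratio was 0.67. Serpina6, which carries glucocorticoids in plasma, differed by -0.48 in the ratio and -0.40 in the liver channel. In fatty acid oxidation (22 genes, median -0.10) the peroxisomal thiolase Acaa1a differed by -0.29, with 0.28 in the liver channel. Apoa5 differed by -0.41 with 0.41 in the liver channel, and Apoc2 by -0.54, with -0.36 in the liver channel and -0.21 in the ratio without air mouse 442.

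Genes of bile acid synthesis and transport (18, median -0.11) included the canalicular exporter Abcc2, at 1.67 and 0.95 in DEP mice 55 and 835434 and between 3.27 and 4.01 in the other DEP mice. Its difference of -0.61 did not reach an unadjusted p under 0.05 and was -0.27 without DEP mouse 835434. Akr1d1, a steroid reductase of the same pathway, differed by -0.24, and by -0.10 without DEP mouse 56. Of the 18 genes 2, Cyp27a1 and Abcb11, were lower at an unadjusted p under 0.05. That compares with 2.53% of all features and 139 of 1869 in the brightest bin. Both were passed over by the rule for naming genes. Genes of iron handling had a median of -0.10 (14 genes), with Aco1, the iron regulatory protein, at -0.20 in the ratio and 0.28 in the liver channel. The 58 cytoplasmic ribosomal proteins had a median of -0.08 and 0 genes at an unadjusted p under 0.05, with Rpl14 at 0.16 and Rplp0 at -0.39 (-0.85 in the liver channel). DEP mouse 835435 stood apart for this list, with a median deviation of -0.70 against -0.02 to 0.24 in the other DEP mice. Without it the median was 0.03 and Rplp0 differed by -0.18. Atp5a1 of the ATP synthase differed by -0.35 in the ratio and -0.16 in the liver channel. The 3 metallothioneins not saturated on all arrays had a median of 0.01, with Mt3 at 0.01. Cholangiocyte markers (5 genes) had a median of 0.02, with Epcam at 0.20 and Krt19 at -0.20, and erythroid markers (8 genes) 0.03, with Hbb-b2 at -0.31 and Gata1 at 0.11.

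Some wide differences rested on 1 array or a few. These genes were chosen after their values were seen. Tfr2, a sensor of iron in hepatocytes, differed by -0.98, but DEP mouse 51 was at -0.48 and every other mouse between 4.97 and 6.07, and without that mouse the difference was -0.15. Ahnak differed by 1.00 because DEP mouse 835435 was at 2.77, where every other mouse lay between -3.77 and -2.67, and it was 0.11 without that mouse. Mbl1, a mannose-binding lectin, differed by 1.12 through air mice 835433, 442 and 443 at 0.34, 1.91 and 2.33, with the other air mice and all DEP mice between 4.54 and 5.36. In all, 123 features differed by over 1.5-fold and 8 by over 2-fold, 4 of them higher.

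The effect of DEP was also compared between the rounds. The DEP difference in the last round minus that in the second round passed the threshold for 0 features, with 877 (4.69%) at an unadjusted p under 0.05 and a lowest adjusted p of 0.969 (limma). Between the last and the second round themselves, over all groups, 0 features passed and 1203 (6.44%) were at an unadjusted p under 0.05. Of the genes given above, Saa3 differed by 0.75 among second-round mice and -0.13 among last-round mice, and Lcn2 by 0.08 and 0.89. Thrsp differed by -1.04 and -0.17, and Acacb by -0.87 and -0.46.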

How the data were processed

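Liver RNA (Cy5) and a common reference RNA (Cy3) were hybridised to 2-colour oligonucleotide arrays, 1 per mouse. The authors scanned the arrays and deposited the Cy5 and the Cy3 intensity of every spot, with flags of absent spots. They also deposited log2 ratios that they had normalized by lowess in R 2.4.1 (version from the submitters' processing notes), used here as an alternative. The ratios of the series table were identical to them and were not used otherwise.

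Log2 ratios were computed from the deposited intensities by loess within each array, with limma 3.58.1 in R 4.3.3. All 18688 of 22575 features with a listed gene were tested (18658 had 1 gene, 30 several), and 3887 without one were left out. Gene names came from the platform annotation. All 23 arrays were fitted in 1 model with lmFit and eBayes, with Benjamini-Hochberg adjustment at 0.05. Single-channel values were quantile normalized between arrays. Their differences could have wider standard errors than the ratio, as for Atp5g1 (0.35 in Cy5 against 0.08) and Asgr2 (0.21 against 0.14). A spot at 65535 was taken as saturated. Genes saturated on all 15 arrays were left out of the lists, and each gene was represented by its brightest feature. By the labels each array is a separate mouse with its round and day of exposure, and the number of arrays limits the precision. The fit was tested on simulated data.

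The genes named were the 12 higher and the 12 lower with the smallest p, the 2 with the smallest p of each of 32 lists, and Saa1, Saa3, Apcs, Hamp, Lcn2, Cyp1a1, Cyp1a2, Nqo1, Hmox1, Mt1 and Tmed3. In the first 2 sets, genes saturated on most of the 15 arrays or flagged absent on most arrays of both groups were passed over. Hmgcs1, Cyp1b1, Tfr2, Ahnak, Mbl1, Ambp, Apoe and A830023I12Rik were added after their values were seen. The groups, members, lists and tests were chosen with earlier results of these data known. Promoter sequences came from RefSeq (GRCm38.p6). Arrays with neighbouring array IDs were grouped as an array set, a possible batch that the labels do not name. Alternatives were the deposited ratios, median centring, Cy5 alone, normexp background correction (offset 50), leaving out absent features or saturated spots, only air and DEP arrays, the exposure round, exposure day or array set as a block, single rounds, array weights and leaving out each mouse.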

Additional observations from a re-analysis of the deposited data

Results flagged for a closer look

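Single mice stood apart from the rest of their group in 12 of the 176 combinations of gene and group examined for a gap at one end, and chance alone gives about 1 in 20 (5%). Air mouse 50 accounted for 3 of them. It was highest for Atg9a, at a log2 ratio of 1.62 against 0.24 to 0.77 in the other air mice, and for Nqo1, at 0.04 against -1.28 to -0.68. It was lowest for Abcc2, at 2.17 against 3.3 to 4.3.

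Air mouse 443 was highest for Asgr1, at 6.38 against 4.2 to 5.07, and for the B cell gene Ms4a1, at -0.65 against -1.72 to -1.38. Air mouse 442 was highest for Apoc2, at 6.49 against 3.44 to 4.45. Air mouse 54 was lowest for Atp5a1, at 1.24 against 1.53 to 1.77.

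In the DEP group mouse 55 was highest for Dnal4, at 0.11 against -0.91 to -0.55 in the others, and mouse 57 for Ms4a1, at 0.94 against -2.43 to -1.06. Mouse 51 was lowest for Arnt, at -0.93 against -0.40 to -0.04. Mouse 56 was lowest for Lpin1, at 2.52 against 2.88 to 3.12, and mouse 444 for Ltf, at -0.40 against 0.22 to 0.69. None of these spots was saturated in Cy5.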

How the results depend on the processing

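No feature passed an adjusted p of 0.05 under any of the 28 alternatives (0 without any 1 mouse as well). The features at an unadjusted p under 0.05 numbered 738 to 1180 under the 13 alternatives other than leaving out a mouse and 753 to 1062 without 1 mouse, against 900. Of 2462 values of the genes named under an alternative 2400 kept their direction and 62 reversed it, in 31 genes, and the causes were not tested.

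With Cy5 alone the difference was 0.53 for Atp5g1, 0.39 for Asgr2, 0.04 for Tkt, -0.05 for Mt3, -0.32 for Bbc3, 0.13 for Errfi1, 0.01 for Lpin1, 0.28 for Acaa1a, 0.41 for Apoa5, 0.28 for Aco1, -0.69 for Pdia3, 0.05 for Plg, 0.11 for Serpinf2, -0.07 for Lyz2, 0.06 for Mpo, 0.06 for Krt19 and 0.05 for Hbb-b2, each of the opposite sign to the ratio. Within the second round Bbc3 was at -0.01, Phlda3 at 0.14, Rora at -0.03, Abcc2 at 0.09, Ltf at -0.25, Hbb-b2 at 0.06, Amy2 at -0.13, Saa3 at 0.75, Apcs at -0.01, Lcn2 at 0.08 and Mt1 at 0.24. Within the last round Nqo1 was at 0.04, Akr1d1 at 0.08, Krt19 at 0.31, Gata1 at -0.07, Lcn2 at 0.89 and Cyp1a2 at 0.34. Lcn2 was at 0.01 with the exposure round, 0.12 with the exposure day and 0.15 with the array set as a block. Apcs was at -0.15 with the array set as a block, -0.02 with the deposited ratios, -0.02 with normexp and -0.12 with median centring, and Mt3 at -0.03 with the deposited ratios and -0.01 with median centring.

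Leaving out 1 mouse changed the sign of 5 genes. The ranges were -0.03 to 0.04 for Mt3, -0.03 to 0.53 for Ms4a1 (lowest without DEP mouse 57), -0.12 to 0.12 for Apcs, -0.31 to 0.10 for Lcn2 and -0.14 to 0.03 for Cyp1a2. For 29 of the 88 genes it moved the difference by over 1.5 times, none of them among the 24 with the smallest p. Those 24 were chosen by p in these same mice, which favours differences that no single mouse moves far. The list medians were also recomputed without each mouse, an alternative chosen after seeing the data. Of the 32 medians 12 changed sign, each of a size of 0.08 or under with all mice. Cholesterol synthesis then ranged from -0.37 to -0.13 and fatty acid synthesis from -0.32 to -0.14. Without genes that have a saturated spot these medians were -0.11 over 11 genes and -0.20 over 14. The mouse numbers are not shared between the groups, so the mice could be matched only by exposure round and day, which were fitted as blocks. The number of arrays and the capping of bright spots limit the values. Cy5 near background limits some genes, among them Cyp1a1, Csf3, Cd200, Lin37, Casp9, Dcbld2 and Cand1.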
